A study of Mus musculus with 12 samples.

Results

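Antiviral interferon-stimulated genes were followed in CT-26 tumors of mice that swam and of mice that did not. The set held 42 genes of the 30630 in the deposited tables, chosen by symbol as well-known interferon-induced antiviral effectors, sensors and regulators. The choice was made with earlier results of these data known. Each gene was found once by its Ensembl identifier in the GENCODE M21 mouse annotation. CT-26 is a mouse colon carcinoma line, and its cells had been injected with Matrigel under the skin of the right flank of male BALB/c mice bought at 4 to 6 weeks of age. The control group received the same injection and no swimming. The swimming group swam 2 times a day, 6 days a week, for up to 30 min a session over 3 weeks, starting 3 days after injection and after allocation by tumor volume. Each group held 10 mice, and the RNA of 6 tumors per group was sequenced in bulk, so that the replicates were tumors of different mice. The comparison asked which transcripts of the tumor tissue differed after swimming exercise.

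Interferons are secreted proteins that announce infection or cell damage to neighbouring cells. Type I interferons bind the Ifnar1 and Ifnar2 receptor, whose kinases Jak1 and Tyk2 phosphorylate STAT proteins, and these join Irf9 in a complex that binds the interferon-stimulated response element (ISRE). Interferon gamma, made mainly by T cells and NK cells, acts through Ifngr1 and Ifngr2 on STAT proteins that bind the gamma-activated site (GAS). The induced genes sense viral nucleic acids, degrade or block viral RNA, hold virions at membranes and attach ubiquitin-like tags to proteins, and in tumors they are read as a record of interferon signalling in cancer and host cells alike.

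Expression was given in FPKM, fragments scaled to transcript length and to library size, without counts. Relative to the deepest tumor, control 2 had a depth of 0.694, read from the steps of low values, and no other tumor was below 0.871. Exons of 13 members overlap those of another gene, and whether strand was used in counting was not given in the sources used here, so reads in such overlaps are uncertain. Among 8 colon epithelium markers, Krt20 had a mean of 139.6 FPKM, Krt8 of 17.6 FPKM and Krt18 of 9.72 FPKM, while Cdh1 (0.289 FPKM) and Krt19 (0.173 FPKM) were low and Epcam, Vil1 and Cdx2 had means below 0.1 FPKM. Control 1 stood apart by its host tissue genes, with a summed level of 177 FPKM over 6 adipocyte markers and 5.91 FPKM over 5 B cell markers, the highest of the control group for each list. Differences below are swimming minus control on the log2(FPKM + 1) scale, which understates the change of low genes, tested with limma over the 19018 genes that had at least 0.1 FPKM in at least 6 tumors. All 42 members passed that filter.

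The upstream sequence of several members holds letters of the element that interferon-activated factors are known to bind. Windows from 250 bases before to 50 after the start were taken from RefSeq (GRCm38.p6) and matched 32 of the 42 members. The letters GAAA followed after any 2 bases by GAAA again, a core form of the ISRE, were found on either strand in the windows of 14 of the 32 matched members, a share of 43.8%, against 3.99% of all 27025 genes with a window. In 10 of the 14 members a match lay before the start. Stretches of 110 bases are printed for 6 members of 4 roles, 3 of them Ifit genes, read along the gene's strand, with the matches in capitals and appearing as a pair of TTTC where they lie on the opposite strand.
Isg15, minus strand, chr4:156200819-156200928, with 3 overlapping matches: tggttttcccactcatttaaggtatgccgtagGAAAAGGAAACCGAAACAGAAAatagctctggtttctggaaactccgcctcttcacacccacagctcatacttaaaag
Ifit1, plus strand, chr19:34640759-34640868, with 2 matches: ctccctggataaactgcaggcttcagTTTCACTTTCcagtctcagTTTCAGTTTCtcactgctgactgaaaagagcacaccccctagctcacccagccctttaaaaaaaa
Ifit3, plus strand, chr19:34583359-34583468, with 2 matches: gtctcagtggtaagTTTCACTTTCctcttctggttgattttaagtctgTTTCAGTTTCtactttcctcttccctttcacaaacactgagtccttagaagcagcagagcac
Ifit3b, plus strand, chr19:34607755-34607864, with 2 matches: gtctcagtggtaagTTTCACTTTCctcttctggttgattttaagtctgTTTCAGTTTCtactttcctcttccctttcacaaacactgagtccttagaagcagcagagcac
Oas1a, minus strand, chr5:120907526-120907635, with 2 overlapping matches: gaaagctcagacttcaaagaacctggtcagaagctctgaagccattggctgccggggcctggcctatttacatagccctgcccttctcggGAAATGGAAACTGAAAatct
Trim30a, minus strand, chr7:104465194-104465303, with 1 match: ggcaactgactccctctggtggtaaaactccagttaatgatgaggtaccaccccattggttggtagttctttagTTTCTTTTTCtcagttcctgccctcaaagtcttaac
The stretches of Ifit3 and Ifit3b were identical at all 110 bases. The letters TTCNNNGAA, a core form of the GAS and read the same way on both strands, were found in 7 of the 32 matched members (21.9%) and in 9.55% of all genes with a window. The ISRE and GAS letters can share bases where GAAA ends a GAS match, and such overlaps were counted for both.

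As a group the antiviral genes stood at higher mean levels in the swimming tumors, by a modest margin and with wide spread between tumors. The log2 fold change was above 0 for 40 of the 42 members, against 51.7% of all genes tested, and its median was 0.31 (1.24-fold), against 0.0039 over all genes. At an unadjusted p below 0.05, 13 members (31.0%) were higher in the swimming tumors, where 3.11% of all genes were, and none was lower, where 2.46% of all genes were. The 13 were Parp9, Ddx58, Ubd, Herc6, Xaf1, Dtx3l, Zbp1, Trim30a, Samd9l, Ifih1, Parp12, Parp14 and Rtp4. No member passed the adjustment over all genes (the 13 had an adjusted p of 0.889 with limma), nor did any of the 19018 genes, of which 1058 had an unadjusted p below 0.05 and the smallest adjusted p was 0.204. In the exact permutation test over all 924 divisions of the tumors, 6 of the 42 members had p below 0.05, and the smallest p it allows is 0.0022. This test was run on the listed genes only, so that count has no share over all genes beside it. The members were chosen with earlier results of these data known, so their shares beside those of all genes are descriptions. Members share tumors and regulators, so they are not independent observations. In bulk tissue more cells of a type and more RNA per cell cannot be told apart. For single genes below, the limma p is unadjusted and the exact permutation p is two-sided.

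**Figure D1:**
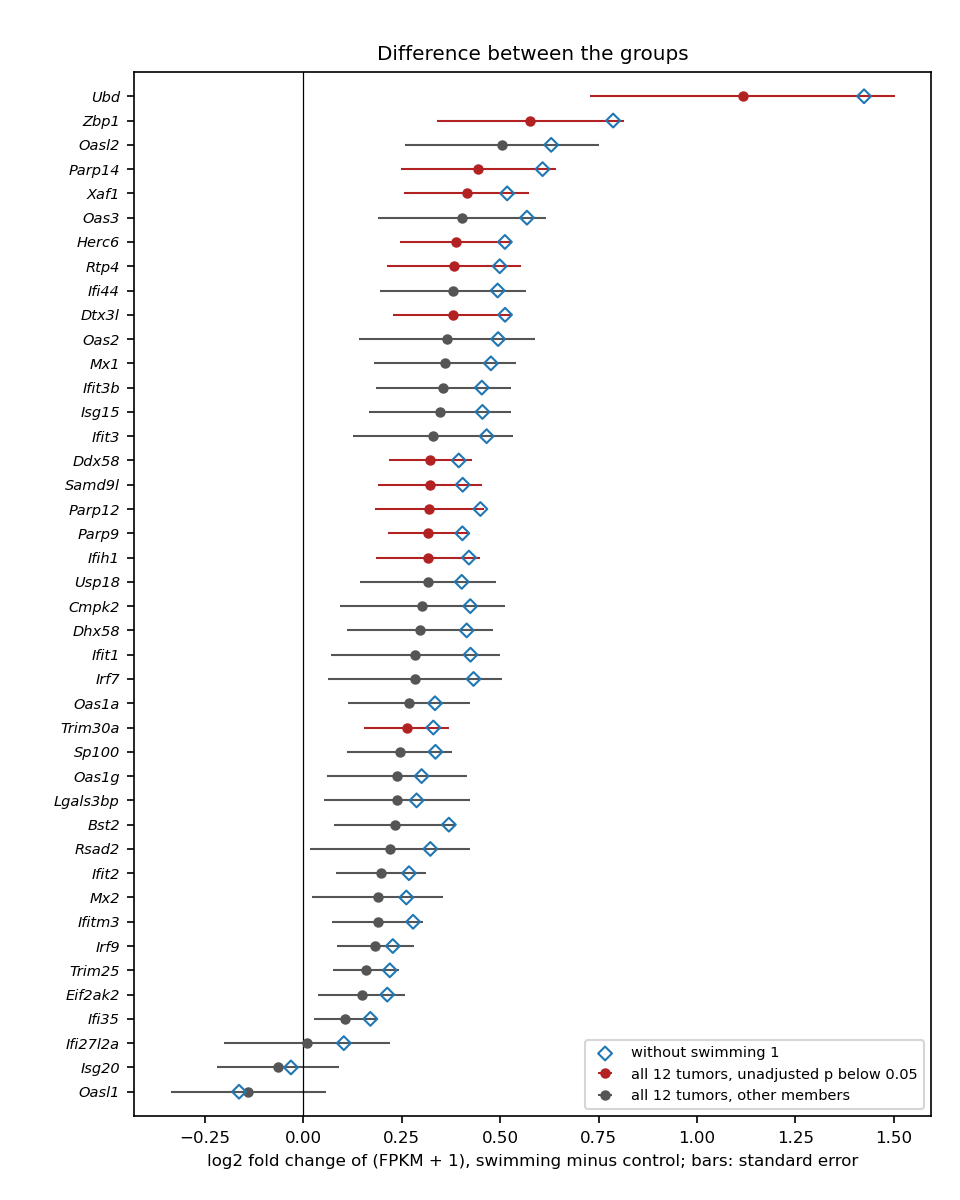
Log2 fold change of the 42 antiviral interferon-stimulated genes, swimming minus control on the log2(FPKM + 1) scale, ordered by size, with bars of 1 SE from limma. Points lie between -0.14 for Oasl1 and 1.12 for Ubd, and the 13 genes at an unadjusted p below 0.05 (red) all lie above 0. The values without swimming 1 (blue diamonds, median 0.41) lie to the right for all genes but Oasl1. Values without swimming 5, with a median of 0.20, are not drawn.

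The 6 swimming tumors did not share the difference evenly. In swimming 5, 39 of the 42 members were above every control tumor, and in swimming 3 it was 37. Swimming 6 had 27 such members, swimming 4 had 25 and swimming 2 had 6. In swimming 1, no member was above all controls and 16 were below all of them. No share over all genes was computed for these per-tumor counts, nor for those of single genes below, so they are descriptions. The median deviation of the members from their control mean was 0.76 in swimming 5, 0.59 in swimming 3, 0.32 in swimming 6, 0.24 in swimming 4, 0.06 in swimming 2 and -0.21 in swimming 1, while the controls lay between -0.16 (control 5) and 0.13 (control 1). The swimming tumors thus ran from below the lowest control to well above the highest. Swimming 5 was the highest of the 12 tumors for 35 members (83.3%), as it was for 16.2% of all genes tested. No member separated the groups completely, as 15 of all genes (0.0789%) did. Without swimming 1, 6 members and 0.603% of all genes did.

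**Figure D2:**
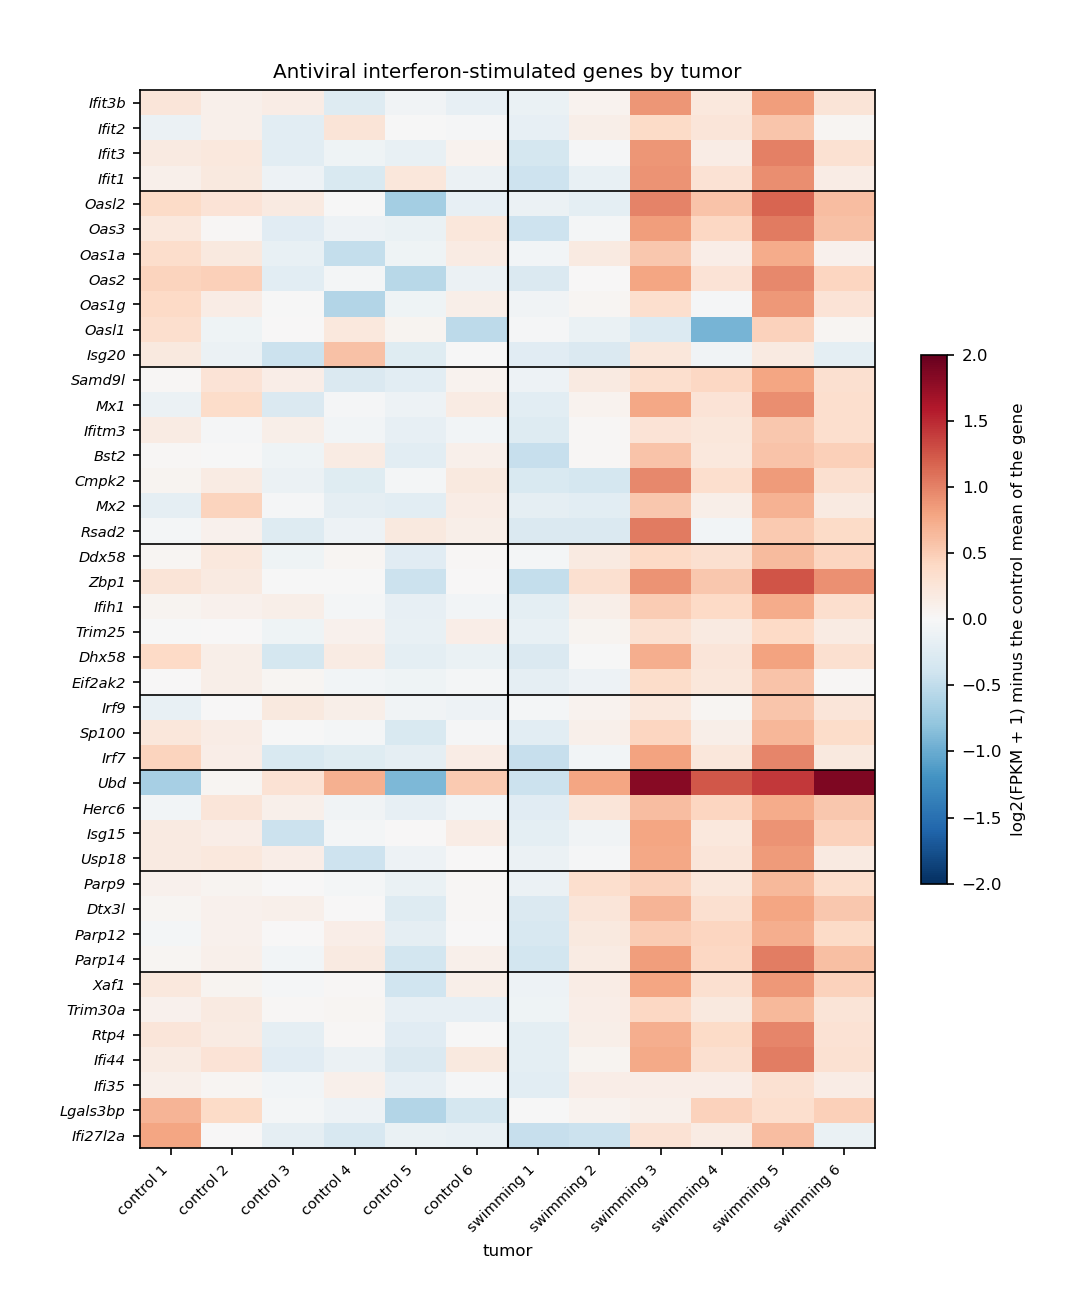
Deviation of each of the 42 genes in each of the 12 tumors from the gene's mean in control tumors, in log2(FPKM + 1) units, with rows grouped by role and a vertical line between groups. Swimming 5 and swimming 3 are red in most rows, with median deviations of 0.76 and 0.59, and swimming 1 is blue in most rows, with a median of -0.21.

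The number of members at an unadjusted p below 0.05 depended on single tumors. Without swimming 1 it was 32 of 42, where 4.5% of all genes were higher, and the median log2 fold change was 0.41; the smallest adjusted p of a member was then 0.15 with limma. Without swimming 5 it was 4, where 2.34% of all genes were higher, and the median was 0.20. Without swimming 3 it was 5 (all genes 2.55%) and without control 5 it was 4 (all genes 2.14%). Parp9, Ddx58, Ubd and Herc6 stayed below an unadjusted p of 0.05 under each of the 21 alternative settings, these omissions included.

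Most T cell markers were also higher in the swimming tumors. Of 7 T cell markers, 5 were higher at an unadjusted p below 0.05, where 3.11% of all genes were. The adjusted p of these 5 was 0.889 with limma. Mean levels of the 7 were low, from 0.443 FPKM (Cd4) to 2.13 FPKM (Cd8a). The summed level of the 7 lay between 3.91 and 9.72 FPKM (median 6.89) in control tumors. In swimming tumors it lay between 6.99 (swimming 1) and 18.6 FPKM (swimming 5). Swimming 3, high for most members, had 8.56 FPKM, within the control range, and swimming 1 was close to the control median. Skeletal muscle markers reached 247.5 FPKM and macrophage markers 1190 FPKM in swimming 5, against control maxima of 175 and 1019 FPKM, and fibroblast markers reached 757 FPKM there against 789 FPKM in control 1. None of the 8 macrophage, 4 NK cell, 4 tested plasmacytoid dendritic cell, 6 endothelial, 6 fibroblast or 7 skeletal muscle markers had an unadjusted p below 0.05. The skeletal muscle markers nevertheless had a median difference of 0.47, with 6 of 7 above 0, beside 0.48 for the T cell markers. Without swimming 5 these medians were -0.02 and 0.37. The part of these tissues in the members' difference was not tested.

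The ADP-ribosyltransferases of the PARP family and their partner were the role group in which every member was higher at an unadjusted p below 0.05. Parp9 and Dtx3l form a complex that adds ubiquitin to histones and viral proteins and strengthens interferon signalling, Parp12 restricts RNA viruses and Parp14 is a large mono-ADP-ribosyltransferase. Parp9 (chr16:35938470-35972605, GRCm38) ranged from 7.55 to 9.02 FPKM (median 8.48) in control tumors and from 7.67 to 13.7 FPKM (median 10.9) in swimming tumors. All swimming tumors but swimming 1 were above every control. The difference was 0.32 (SE 0.10, limma p = 0.00874, exact permutation p = 0.0173).

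Dtx3l lies beside Parp9 on the opposite strand (chr16:35926511-35939151), and the 2 genes overlap by 682 bases, so that reads there cannot be assigned without strand. It had 5.92 to 7.85 FPKM (median 7.48) in control and 5.77 to 13.2 FPKM (median 10.2) in swimming tumors, a difference of 0.38 (limma p = 0.0256, exact permutation p = 0.0584). Parp12 had from 15.4 to 19.4 FPKM (median 17.6) in controls and from 13.8 to 29.7 FPKM (median 23.7) after swimming, a difference of 0.32 (limma p = 0.0383, exact permutation p = 0.0628). For both, swimming 1 held the lowest value of all tumors and the other 5 swimming tumors exceeded every control. Parp14 had 4.99 to 7.77 FPKM (median 7.16) against 4.998 to 14.8 FPKM (median 10.1), a difference of 0.44 (limma p = 0.0415, exact permutation p = 0.0758), with 4 swimming tumors above the controls. Without swimming 5, Parp9 was the 1 gene of these 4 at an unadjusted p below 0.05.

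Cytosolic sensors recognise foreign nucleic acid, and 3 of the 6 members of this group were higher at an unadjusted p below 0.05. Ddx58, which encodes the RNA helicase RIG-I that detects uncapped RNA ends (chr4:40203773-40239828), had 5.59 to 7.91 FPKM (median 6.92) in controls and 6.53 to 11.01 FPKM (median 8.95) in swimming tumors. The difference was 0.32 (SE 0.11, limma p = 0.00907, exact permutation p = 0.0195), and 4 swimming tumors exceeded every control. Its relative Ifih1, encoding MDA5, a sensor of long double-stranded RNA, had 3.41 to 4.35 FPKM (median 3.96) against 3.29 to 7.27 FPKM (median 5.35), a difference of 0.32 (limma p = 0.0315, exact permutation p = 0.0519). In both genes swimming 1 lay among or below the controls.

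Zbp1, a sensor of Z-form nucleic acid that can trigger necroptosis, showed the widest difference of the sensors. Its level was 6.54 to 11.2 FPKM (median 9.19) in controls and 6.34 to 23.4 FPKM (median 15.9) in swimming tumors, a difference of 0.58 (SE 0.24, limma p = 0.0301, exact permutation p = 0.0606). Every swimming tumor but swimming 1 was above all controls. The regulators Dhx58 (0.30, exact permutation p = 0.182) and Trim25 (0.16, exact permutation p = 0.102) and the kinase Eif2ak2 (PKR), which halts translation on binding double-stranded RNA (0.15, exact permutation p = 0.266), had smaller differences that reached p below 0.05 in neither test.

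Among the ubiquitin-like modifiers and their enzymes, Ubd had the largest log2 difference of all 42 members. Ubd encodes FAT10, a modifier that targets proteins to the proteasome and is induced by interferon gamma and tumor necrosis factor (chr17:37193892-37196095). It ranged from 1.146 to 5.56 FPKM (median 3.51) in control tumors and from 1.98 to 13.6 FPKM (median 9.09) in swimming tumors, with means of 3.34 ± 1.76 and 8.80 ± 4.41 FPKM (SD, n = 6 each). All swimming tumors but swimming 1 exceeded every control, and the highest was swimming 6 rather than swimming 5. The difference was 1.12 (SE 0.39, limma p = 0.0129, exact permutation p = 0.0325), and Ubd was the 1 member more than 2-fold higher at an unadjusted p below 0.05, as 0.0684% of all genes were.

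Herc6, the main ligase for Isg15 in mice (chr6:57581000-57664632), had 3.49 to 5.0 FPKM (median 3.87) in controls and 3.31 to 7.42 FPKM (median 6.08) after swimming, a difference of 0.39 (SE 0.14, limma p = 0.0174, exact permutation p = 0.0411). The modifier Isg15 itself had 28.5 to 43.8 FPKM (median 40.4) against 33.7 to 72.4 FPKM (median 49.1), a difference of 0.35 (limma p = 0.0769, exact permutation p = 0.128). Swimming 1 and swimming 2 were below the control median and the other 4 swimming tumors were above every control. Usp18, which removes Isg15 and dampens the type I receptor, had a difference of 0.32 (limma p = 0.0896, exact permutation p = 0.154). Without swimming 1, all 4 members of the group were higher at an unadjusted p below 0.05 (all genes 4.5%). Without swimming 5, 2 of the 4 were (all genes 2.34%).

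**Figure D3:**
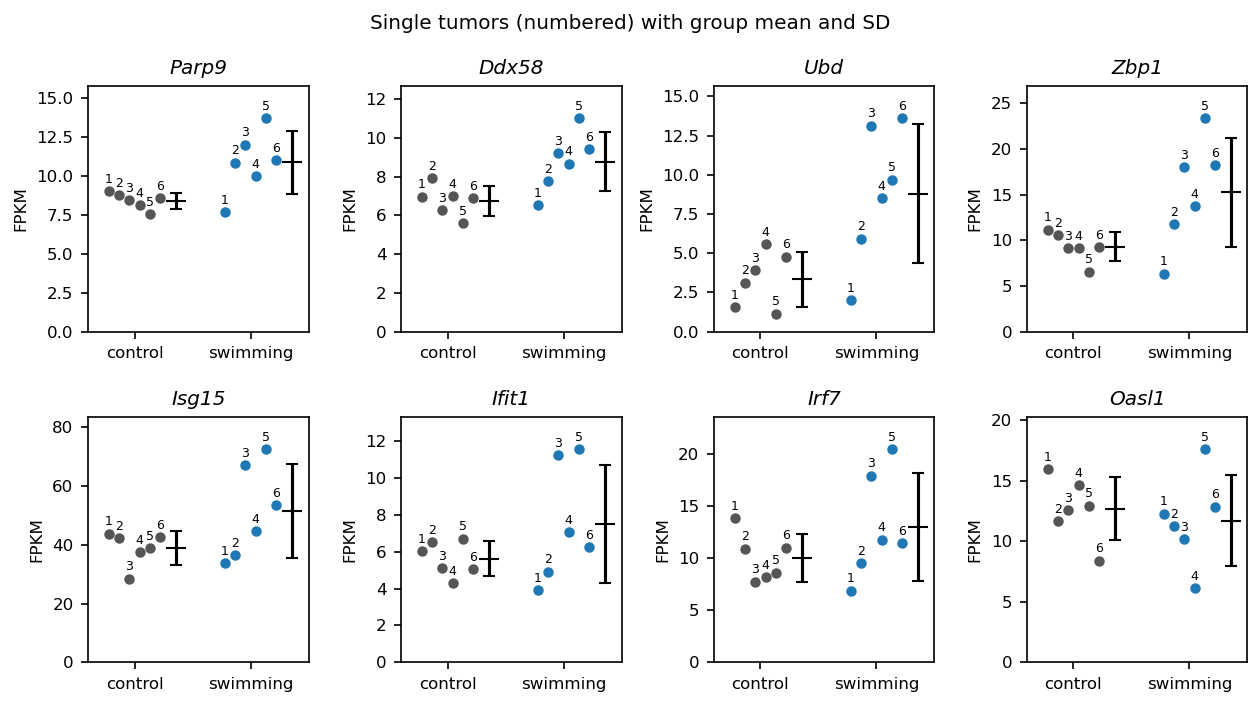
FPKM of 8 members in single tumors, numbered by replicate, with the group mean and SD as bars (n = 6 per group). In Parp9, Ubd and Zbp1 every swimming tumor except swimming 1 lies above all controls, in Isg15, Ifit1 and Irf7 swimming 3 and swimming 5 lead, and in Oasl1 the groups overlap throughout.

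The IFIT proteins bind viral RNA that lacks the host cap and block its translation. Their 4 genes form a cluster on chr19:34550694-34650009, and none had an unadjusted p below 0.05, with a median difference of 0.31. Ifit1 had 4.30 to 6.70 FPKM (median 5.57) in controls and 3.92 to 11.5 FPKM (median 6.65) in swimming tumors, a difference of 0.28 (limma p = 0.207, exact permutation p = 0.268). Ifit3 had 7.60 to 10.5 FPKM (median 8.98) against 6.81 to 19.1 FPKM (median 10.7), a difference of 0.33 (limma p = 0.13, exact permutation p = 0.208). In these 2 genes swimming 3 and swimming 5 held the highest values. Ifit3b had 2.56 to 4.05 FPKM (median 3.30) against 2.86 to 6.87 FPKM (median 4.005), a difference of 0.35 (limma p = 0.059, exact permutation p = 0.0931). The transcripts of Ifit3 and Ifit3b were identical at 1663 of 1697 aligned bases, so their separate values are uncertain. Without swimming 1, the tumor with the lowest median deviation, all 4 Ifit genes, Ifit2 included, had an unadjusted p below 0.05 (all genes higher 4.5%). Without swimming 5, 0 of the 4 did (all genes 2.34%), and their median difference was 0.17.

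The 2'-5' oligoadenylate synthetases make the messenger that activates RNase L, and with the exonuclease Isg20 they form the only role group that held negative differences. None of the 7 had an unadjusted p below 0.05, with a median difference of 0.27. Oasl2 had 5.24 to 12.02 FPKM (median 9.60) in controls and 7.69 to 21.3 FPKM (median 14.05) in swimming tumors, a difference of 0.50 (SE 0.25, limma p = 0.061, exact permutation p = 0.102). Oas3 had 3.20 to 4.74 FPKM (median 3.77) against 2.67 to 9.12 FPKM (median 5.97), a difference of 0.40 (limma p = 0.0806, exact permutation p = 0.123). In both genes 4 swimming tumors exceeded every control.

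Oas1a had 10.6 to 19.6 FPKM (median 15.7) in controls and 14.5 to 26.0 FPKM (median 16.9) after swimming, a difference of 0.27 (limma p = 0.109, exact permutation p = 0.16). It shares 97.5% of 1860 aligned transcript bases with its neighbour Oas1g (0.24, exact permutation p = 0.288), so this pair is uncertain as well, and with Oas2 (0.36, exact permutation p = 0.177) and Oas3 they lie on chr5:120730333-120907521. Oasl1, which represses translation of Irf7, had 8.401 to 15.9 FPKM (median 12.7) against 6.10 to 17.6 FPKM (median 11.8), a difference of -0.14 (limma p = 0.493, exact permutation p = 0.558). Isg20 had a difference of -0.06 (limma p = 0.685, exact permutation p = 0.721). The groups overlapped throughout for these last 2 genes.

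Restriction factors at membranes and in nucleotide metabolism held both the highest and the lowest levels of the set. Ifitm3, which stops virions from fusing in endosomes, had 592 to 746 FPKM (median 646) in controls and 552 to 963 FPKM (median 790) in swimming tumors, a difference of 0.19 (limma p = 0.13, exact permutation p = 0.158). Bst2 (tetherin), which holds budding virions at the cell surface, had 216 to 281 FPKM (median 253) against 183 to 373 FPKM (median 320), a difference of 0.23 (limma p = 0.158, exact permutation p = 0.201). For each, 4 swimming tumors lay above all controls and swimming 1 lay below all of them.

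Samd9l, a factor that restricts poxviruses, was the 1 gene of the 7 in this group at an unadjusted p below 0.05. It had 13.2 to 20.1 FPKM (median 17.0) in controls and 15.3 to 29.0 FPKM (median 20.8) after swimming, a difference of 0.32 (limma p = 0.0304, exact permutation p = 0.0519). The dynamin-like Mx genes were the lowest: Mx1 had 1.61 to 3.09 FPKM (median 2.04) against 1.73 to 5.02 FPKM (median 2.93), a difference of 0.36 (limma p = 0.0673, exact permutation p = 0.108), and Mx2, which the annotation gives as a polymorphic pseudogene, had 1.01 to 2.15 FPKM (median 1.18) against 1.02 to 2.75 FPKM (median 1.58), a difference of 0.19 (limma p = 0.276, exact permutation p = 0.301). Mx1 is disrupted in most inbred mouse strains. The groups overlapped for all 3 genes. Rsad2 (viperin, 0.22, exact permutation p = 0.37) and Cmpk2 (0.30, exact permutation p = 0.24), neighbours on chromosome 12 that act in nucleotide metabolism, reached p below 0.05 in neither test.

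None of the 3 transcription regulators had an unadjusted p below 0.05. Irf9, the DNA-binding partner of STAT proteins, had 5.27 to 6.91 FPKM (median 5.78) in controls and 5.74 to 9.16 FPKM (median 6.68) in swimming tumors, a difference of 0.18 (limma p = 0.0847, exact permutation p = 0.0952). Irf7, the regulator of interferon alpha genes, had 7.76 to 13.8 FPKM (median 9.78) against 6.87 to 20.5 FPKM (median 11.6), a difference of 0.28 (limma p = 0.224, exact permutation p = 0.281). For Irf7 only swimming 3 and swimming 5 were above all controls, and swimming 1 was below all of them. The nuclear body protein Sp100 had a difference of 0.24 (limma p = 0.0919, exact permutation p = 0.128).

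Of the 7 remaining members, Xaf1, Trim30a and Rtp4 were higher at an unadjusted p below 0.05. Xaf1, a pro-apoptotic partner of XIAP, had 2.46 to 4.26 FPKM (median 3.69) in controls and 3.24 to 7.27 FPKM (median 4.97) after swimming, a difference of 0.41 (limma p = 0.0222, exact permutation p = 0.0411). Trim30a, a restrainer of NF-kappa B signalling, had 13.8 to 17.7 FPKM (median 16) against 14.7 to 25.1 FPKM (median 18.4), a difference of 0.26 (limma p = 0.0303, exact permutation p = 0.0476). Rtp4 had 3.76 to 5.59 FPKM (median 4.62) against 3.87 to 10.05 FPKM (median 6.07), a difference of 0.38 (limma p = 0.0426, exact permutation p = 0.0693). In each of these 3 genes 4 swimming tumors exceeded every control.

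Ifi27l2a, a commonly used marker of interferon exposure, was nearly level between groups, with 133 to 287 FPKM (median 151) in controls and 121 to 255 FPKM (median 170) in swimming tumors, a difference of 0.01 (limma p = 0.968, exact permutation p = 0.955). Its highest value was in control 1, the tumor with the adipocyte and B cell genes, and so was that of Lgals3bp (69.7 FPKM; difference 0.24, limma p = 0.224, exact permutation p = 0.288). The part of those cells in these 2 values was not tested. Ifi44 (0.38, exact permutation p = 0.106) and Ifi35 (0.11, exact permutation p = 0.232) reached p below 0.05 in neither test.

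Over both groups pooled, the members varied together from tumor to tumor. After the group means were removed, the median Pearson correlation over the 861 pairs of members was 0.77 across the 12 tumors, and 857 pairs were above 0. Ifit3 and Rtp4 were most like the rest (mean r of 0.82 each) and Oasl1 least (0.18), followed by Lgals3bp (0.37), Isg20 (0.41) and Ubd (0.53). These values are descriptions, since all genes of a tumor share its library, depth and cell composition. They were not computed within either group alone, and no value over pairs of all genes was computed. Median deviations of the members spread wider in swimming tumors (-0.21 to 0.76) than in controls (-0.16 to 0.13). The swimming tumors therefore weigh more in these correlations. By upstream letters, the 14 members with the ISRE letters had a median difference of 0.28, 3 of them at an unadjusted p below 0.05, and the 18 without had a median of 0.29, 6 of them at that level, and these counts were not tested against each other.

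The pathway around the members was examined with lists of its other genes. Of 52 such genes tested, 18 were higher at an unadjusted p below 0.05 and none was lower, where 3.11% and 2.46% of all genes were, with a median difference of 0.16. Of the 18, 14 came from 16 genes listed here as induced mainly by interferon gamma, whose median difference was 0.80. Of the other 36, 4 were higher: Ifng, Stat2, Tlr3 and Adar. Which interferon, if any, induced the 16 genes in these tumors was not tested. These lists too had no gene past the adjustment over all genes, and they too were chosen with earlier results of these data known.

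Among the ligands, 6 of the 21 listed interferon genes were in the files and the rest were not analysed here. Ifng had 0.125 to 0.584 FPKM (median 0.398) in controls and 0.334 to 1.83 FPKM (median 0.948) in swimming tumors, a difference of 0.55 (SE 0.17, limma p = 0.00629, exact permutation p = 0.0173), and 5 swimming tumors were above all controls. Exons of Ifng overlap those of Gm49751 on the same strand, so its value is uncertain here and in the relations below. Ifnb1 reached at most 0.0801 FPKM in control and 0.24 FPKM in swimming tumors and did not pass the filter, nor did Ifna4, Ifne and Ifnk. Ifnz had a difference of 0.06 (limma p = 0.32, exact permutation p = 0.271). Of the 2 ligands tested, Ifng was higher, from a level below 1 FPKM in every control.

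None of the 5 receptor genes tested had an unadjusted p below 0.05. Ifnar1 had 10.5 to 14.1 FPKM (median 11.8) in controls and 10.8 to 14.4 FPKM (median 12.5) after swimming, Ifnar2 10.4 to 13.9 FPKM (median 11.6) and 9.91 to 16.1 FPKM (median 11.5), and Ifngr1 15.9 to 20.9 FPKM (median 18.2) and 16.9 to 21.8 FPKM (median 19.0). Their differences were 0.05, -0.01 and 0.06. Of the 4 transducers, Stat2 had 4.52 to 6.86 FPKM (median 6.23) against 4.58 to 11.4 FPKM (median 8.74), a difference of 0.41 (limma p = 0.0308, exact permutation p = 0.0584). All swimming tumors but swimming 1 exceeded every control, while the kinases Jak1, Jak2 and Tyk2 had differences of 0.09, -0.01 and 0.07.

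Of 16 sensing and induction genes, the endosomal RNA sensor Tlr3 and the RNA-editing enzyme Adar were higher at an unadjusted p below 0.05. Tlr3 had 2.05 to 3.62 FPKM (median 2.63) in controls and 3.38 to 4.39 FPKM (median 3.64) in swimming tumors, a difference of 0.39 (limma p = 0.0035, exact permutation p = 0.00866). Adar had 7.40 to 9.58 FPKM (median 8.93) against 9.03 to 11.4 FPKM (median 9.77), a difference of 0.17 (limma p = 0.0348, exact permutation p = 0.0346). Unlike most members, these 2 genes had all 6 swimming tumors above the control median. None of the 9 inhibitors had an unadjusted p below 0.05, Socs1 having a difference of 0.25 (limma p = 0.158, exact permutation p = 0.203).

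The genes of the interferon gamma list showed wider differences than most members. The GTPases Irgm2 (1.23, exact permutation p = 0.0238), Gbp2b (1.07, exact permutation p = 0.0411), Gbp2 (0.99, exact permutation p = 0.0325), Gbp4 (0.85, exact permutation p = 0.0476), Igtp (0.80, exact permutation p = 0.0498), Iigp1 (0.78, exact permutation p = 0.0866) and Irgm1 (0.58, exact permutation p = 0.0844) were higher at an unadjusted limma p below 0.05. So were the T cell attractants Cxcl9 (1.04, exact permutation p = 0.0649) and Cxcl10 (0.79, exact permutation p = 0.0541), the antigen presentation genes H2-Aa (1.02, exact permutation p = 0.0433), Ciita (0.60, exact permutation p = 0.039) and Psmb9 (0.48, exact permutation p = 0.0758), and the immune brakes Ido1 (0.85, exact permutation p = 0.0238) and Cd274 (0.50, exact permutation p = 0.0844). Nos2 (0.33, exact permutation p = 0.0931) and Tap1 (0.29, exact permutation p = 0.188) were not. Exons of Irgm2 and Igtp overlap on the same strand, and those of Gbp4 overlap Gbp8 and Gbp9, so their separate values are uncertain. Irgm2 had 2.98 FPKM in control 2 and 2.94 FPKM in control 6, against 7.33 to 16.6 FPKM in the other controls. Igtp had 19.3 and 22.7 FPKM in control 2 and control 6. The part of read assignment in these values was not tested. Whether the interferon gamma list differed from the antiviral members was not tested.

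Ubd, Irf7 and Ifit1 were set against Ifng over the 12 tumors, with permutation p-values adjusted over a family of 6 relations. Each of these genes, Ifng included, had a higher mean in the swimming tumors, and the resampling ran across both groups. The pooled r, rho and p therefore include the difference between the groups. Ubd had a Pearson r = 0.778 (permutation p = 0.00309, adjusted 0.00927) and Spearman rho = 0.839 (permutation p = 0.00103, adjusted 0.00309). Without swimming 5 and swimming 6, the tumors farthest from the median of Ifng, r was 0.708 (permutation p = 0.0216). Within the control group r was 0.15 (exact permutation p = 0.775) and within the swimming group 0.797 (exact permutation p = 0.0458).

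Irf7 and Ifit1 were compared with Ifng in the same way. Irf7 had r = 0.668 (permutation p = 0.018, adjusted 0.0361) and rho = 0.685 (permutation p = 0.0166, adjusted 0.0333). Ifit1 had r = 0.596 (permutation p = 0.039, adjusted 0.0467) and rho = 0.406 (permutation p = 0.192, adjusted 0.192). Without swimming 5 and swimming 6, r was 0.568 for Irf7 (permutation p = 0.0873) and 0.467 for Ifit1 (permutation p = 0.174), so that neither p stayed below 0.05 without those 2 tumors. Within groups r was 0.107 and -0.468 in control tumors (exact permutation p = 0.806 and 0.362) and 0.768 and 0.692 in swimming tumors (exact permutation p = 0.0722 and 0.14). With group means removed over the 12 tumors, r with Ifng was 0.64 for Irf7, 0.61 for Ubd and 0.52 for Ifit1, given as a description. Groups of 6 allow only imprecise correlations, and differences between the relations were not tested.

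**Figure D4:**
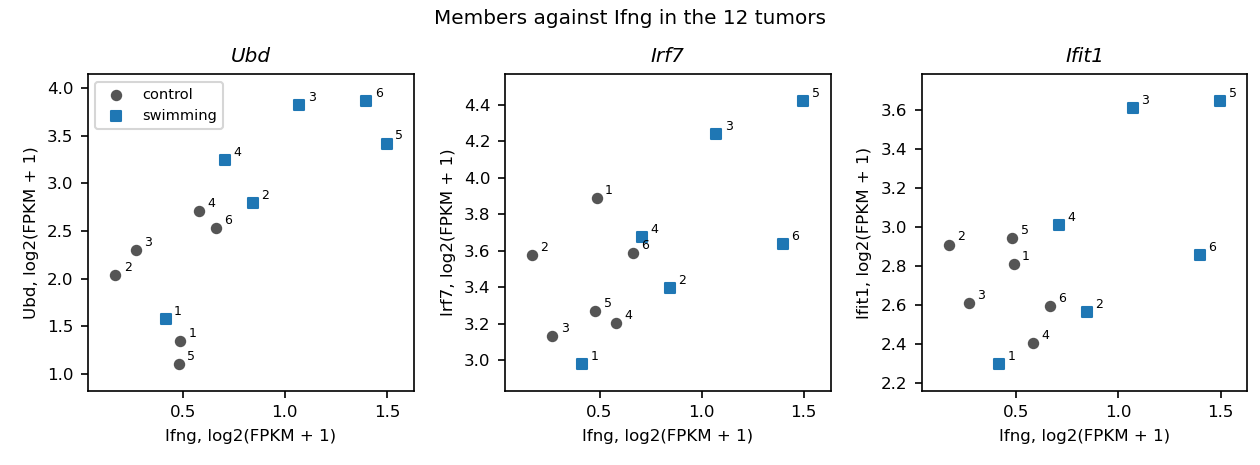
Levels of Ubd, Irf7 and Ifit1 against Ifng in the 12 tumors, both axes in log2(FPKM + 1), with points numbered by replicate and marked by group. Over all tumors r was 0.778 for Ubd, 0.668 for Irf7 and 0.596 for Ifit1, and swimming 5 and swimming 6 lie farthest to the right.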

How the data were processed

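RNA of 12 CT-26 tumors (6 control, 6 swimming) was sequenced in bulk. Each tumor's deposited table gave FPKM per Ensembl mouse gene, which the authors computed from HISAT2 2.0.5 alignments with StringTie 1.3.3. The study's methods name hg38 and the submitters' processing notes both hg38 and GRCm38; the identifiers are those of mouse. FPKM carries no counts, so count models and counting intervals were not used, and low genes are imprecise. Symbols and coordinates came from GENCODE M21 (GRCm38), promoter windows from RefSeq (GRCm38.p6).

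Values were tested as log2(FPKM + 1) with limma 3.58.1 (R 4.3.3; lmFit, eBayes with trend, no covariates), keeping genes that reached 0.1 FPKM in 6 tumors or more, with Benjamini-Hochberg adjustment over all 19018 genes. Two-sided exact permutation tests of the difference of mean log2 values used all 924 divisions into 6 and 6, and correlations 100000 resamples (scipy 1.17.1). Scripts were tested on simulated data. The members and lists were chosen with earlier results of these data known, so no p was adjusted over a list alone and no list was tested as a set. Members are given with the range of each group if they had an unadjusted p below 0.05, were among the 6 largest differences, the 3 highest or the 3 lowest levels, or belonged to a list of usual readouts of each role (Ifit1, Ifit3, Ifit3b, Isg15, Irf7, Irf9, Oas1a, Mx1, Ddx58, Ifih1). Of the pathway lists, Ifng, Ifnb1, Stat2, Ifnar1, Ifnar2, Ifngr1 and genes at an unadjusted p below 0.05 are named. A pathway gene, with its 3 of the 6 relations, is not reported here. Oasl1 was added to these after its values were seen, as the member with the lowest difference. Other genes named with a difference alone were added to account for their lists. Alternatives were pseudocounts of 0.1 and 0.01, no filter or one of 1 FPKM, trimmed-mean scaling of log ratios, quantile normalization, no trend, array weights, a replicate block and leaving out each tumor.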

Additional observations from a re-analysis of the deposited data

Results flagged for a closer look

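In 3 of the 84 groups of 6 values (42 members in both groups) 1 tumor lay far from the others by Dixon's ratio, where chance gives about 4.2. Dtx3l was 5.92 FPKM in control 5, the lowest of its group, and Oas1g was 14.5 FPKM in swimming 5, the highest of its group. Ifi27l2a was 287 FPKM in control 1, the tumor with the highest summed adipocyte (177 FPKM) and B cell (5.91 FPKM) markers among the controls. The part of these cells in that value was not tested.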

How the results depend on the processing

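The 42 members had a positive median log2 fold change under all 21 alternatives, and 39 of them were above 0 in each. Of the 27 members named by the rule, 26 kept their direction. Oasl1, named beside them, was at -0.14 and at 0.02 without swimming 4. Ifi27l2a, at 0.01, lay between -0.11 and 0.17 when 1 tumor was left out. The 13 members at an unadjusted p below 0.05 became 6 with a replicate block, and 4 to 32 when 1 tumor was left out. There were 4 without control 5 or swimming 5, 5 without swimming 3 and 8 without control 6, swimming 4 or swimming 6. There were 21 without swimming 2 and 32 without swimming 1. The share of all genes at that level, in either direction, was 5.56% in the main fit and 4.69% with the block. It was 4.4% without control 5, 4.58% without swimming 5, 5.27% without swimming 2 and 7.56% without swimming 1. The labels do not say whether the replicate numbers stand for a pairing. Tumors of the same number had a mean correlation of deviations of -0.12, against 0.02 for different numbers. Of the 12 tumors, 0 correlated best with the tumor of their own number in the other group. The count of 0 genes at an adjusted p below 0.05 became 1 with array weights, and 0 to 3 when 1 tumor was left out (3 without control 4, 2 without swimming 1, 1 without swimming 4). The count of members past a fold of 2, 1 (Ubd), was 0 to 1, being 0 without control 1, control 5, swimming 3 or swimming 6. The 18 pathway genes became 9 to 26: 9 without swimming 5, 10 without control 5, swimming 3 or swimming 6, and 26 without swimming 1. The cause of these shifts was not tested. Levels near 1 FPKM or below rest on few fragments, whose number is not given. Such levels include those of Ifng, the other interferons, Mx2, Cd3d, Cd3e and Cd4.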
